A study of Mus musculus with 20 samples.

Results

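The 10 genes described here, Ttr, Folr1, Kl, Clic6, Kcne2, Aqp1, Slc4a5, Otx2, Enpp2 and Prlr, were taken by name as genes known for high expression in the choroid plexus, out of 46078 genes counted in each library. All 10 were found by their Ensembl identifiers. The libraries came from male wild type C57BL/6J mice aged 18 months that were killed 7 weeks after a stroke made by distal middle cerebral artery occlusion combined with hypoxia. From 1 week after stroke the mice were given either vehicle, which was phosphate-buffered saline, or HPBCD (2-hydroxypropyl-β-cyclodextrin, a sugar ring that carries cholesterol) at 4 g/kg under the skin, 3 times per week for 6 weeks. The infarct itself was removed before the peri-infarct region was cut out, and the matching region was taken from the contralateral hemisphere, which gave 4 groups of 5 libraries. Every mouse had a stroke, so the contralateral libraries are not from uninjured brain.

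The choroid plexus is a vascular tissue that hangs in the brain ventricles, and its epithelium secretes cerebrospinal fluid. The epithelium moves ions and water from blood to fluid, imports folate, and releases large amounts of transthyretin, the protein that carries thyroxine and, through retinol-binding protein, vitamin A. It is continuous with the ependyma, the ciliated cell layer that lines the ventricles. A dissected block of forebrain holds choroid plexus RNA where the cut reaches a ventricle, and in such bulk tissue more cells of a type and more RNA per cell cannot be told apart.

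Total gene counts ran from 14445021 to 22171627 per library, and a count of 3 was worth 0.125 to 0.231 CPM, the read pair counts scaled to library size. CPM were scaled by edgeR's TMM factors over all 20 libraries, and at this depth Kcne2 and Slc4a5 had 3 counts or fewer in all 5 vehicle contralateral libraries. Libraries that carry the same number in the 2 regions of a treatment share an animal identifier in the deposited names, and are called here by animal. The 8 neuronal markers summed to between 2442 and 11112 CPM in the 20 libraries, which are brain by label.

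All 10 genes were highest of their group in both libraries of HPBCD animal 3, and Otx2 encodes a homeodomain factor of choroid plexus epithelium. Sequence upstream of the RefSeq start is shown for 4 of them, Kl, Aqp1, Kcne2 and Otx2. Each is the 250 bases before the start on GRCm38.p6, from RefSeq, with no annotated exon inside, written 5′ to 3′ on the strand of the gene.
Kl, chr5:150952357-150952606, plus strand: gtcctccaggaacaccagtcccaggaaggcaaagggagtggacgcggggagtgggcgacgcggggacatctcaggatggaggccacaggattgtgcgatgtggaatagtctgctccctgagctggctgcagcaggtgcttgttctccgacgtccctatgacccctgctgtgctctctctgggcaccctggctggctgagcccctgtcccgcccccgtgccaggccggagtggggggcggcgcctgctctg
Aqp1, chr6:55336049-55336298, plus strand: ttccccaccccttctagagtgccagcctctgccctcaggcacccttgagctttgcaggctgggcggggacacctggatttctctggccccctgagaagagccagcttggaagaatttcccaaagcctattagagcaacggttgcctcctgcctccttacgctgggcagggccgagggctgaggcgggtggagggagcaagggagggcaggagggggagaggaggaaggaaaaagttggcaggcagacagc
Kcne2, chr16:92292139-92292388, plus strand: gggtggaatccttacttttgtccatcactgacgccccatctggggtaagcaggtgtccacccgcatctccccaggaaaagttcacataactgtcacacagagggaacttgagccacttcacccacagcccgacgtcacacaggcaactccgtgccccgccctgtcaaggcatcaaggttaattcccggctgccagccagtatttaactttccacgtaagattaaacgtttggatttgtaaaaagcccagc
Otx2, chr14:48667645-48667894, minus strand: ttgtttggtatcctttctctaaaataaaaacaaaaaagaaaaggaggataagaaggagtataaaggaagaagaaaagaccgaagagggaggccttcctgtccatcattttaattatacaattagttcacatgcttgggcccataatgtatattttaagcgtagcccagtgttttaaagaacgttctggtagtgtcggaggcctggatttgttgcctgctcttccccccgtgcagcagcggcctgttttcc
The motif searched was TAATCC, the sequence that Otx2-type homeodomains bind, on either strand, and a match would stand in capitals. RefSeq promoter entries were matched for 6 of the 10 genes, with 12 promoters in all. None of the 4 shown holds a match, and 1 of the 12 does, at another start of Otx2, where it begins at position -211. A match is found in 6.25% of the 32851 promoters of that source.

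Transthyretin, encoded by Ttr (ENSMUSG00000061808, GRCm38 chr18:20665280-20674321), varied widely among the libraries. Its level in the vehicle peri-infarct libraries of animals 1 to 5 was 44.9, 16.4, 2.92, 1.25 and 0.664 CPM. The contralateral libraries of the same animals held 6.08, 1.11, 1.15, 0.0546 and 0.0997 CPM. Animal 1 was the highest in both regions, and each animal had more Ttr in its peri-infarct library than in its contralateral one. In the HPBCD-treated animals 1 to 5, the peri-infarct level was 9.23, 139, 552, 116 and 17.9 CPM. The contralateral level in those animals was 0.254, 4.28, 582, 4.77 and 0 CPM. Animal 3 was at about the same level in both regions, at 11684 and 8340 counts, and its contralateral library was 122 times the next highest of that group. By group median the order was vehicle contralateral (1.11 CPM), vehicle peri-infarct (2.92 CPM), HPBCD contralateral (4.28 CPM) and HPBCD peri-infarct (116 CPM), and each neighbouring pair overlapped in its libraries.

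The secretory and uptake genes read next were Folr1 and Kl. Folr1 (ENSMUSG00000001827, chr7:101858331-101870788) encodes folate receptor alpha, which takes folate across the epithelium. Its peri-infarct level was 0.870, 0.930, 0.337, 0.139 and 0.712 CPM in vehicle and 1.59, 2.81, 7.46, 2.50 and 3.68 CPM in HPBCD animals. The 2 treatment groups did not overlap there. In the contralateral tissue it was 0.0553, 0.111, 1.15, 0.0546 and 0.150 CPM in vehicle and 0.0508, 0.153, 2.65, 0.0769 and 0.0571 CPM in HPBCD animals, so animal 3 stood above the rest in each treatment. Kl (ENSMUSG00000058488, chr5:150952607-150993817) encodes alpha-klotho, the co-receptor through which FGF23 signals. Kl was at 13.9, 4.34, 3.09, 4.32 and 2.61 CPM among vehicle peri-infarct libraries and at 5.93, 36.6, 44.5, 11.0 and 5.08 CPM in those of HPBCD animals. On the contralateral side it was 1.38, 2.23, 1.57, 6.11 and 1.10 CPM in vehicle and 2.18, 1.78, 27.4, 1.08 and 1.03 CPM in HPBCD animals. Both Kl and Ttr were therefore highest in animal 1 among the vehicle peri-infarct libraries and in animal 3 among those of HPBCD.

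**Figure D1:**
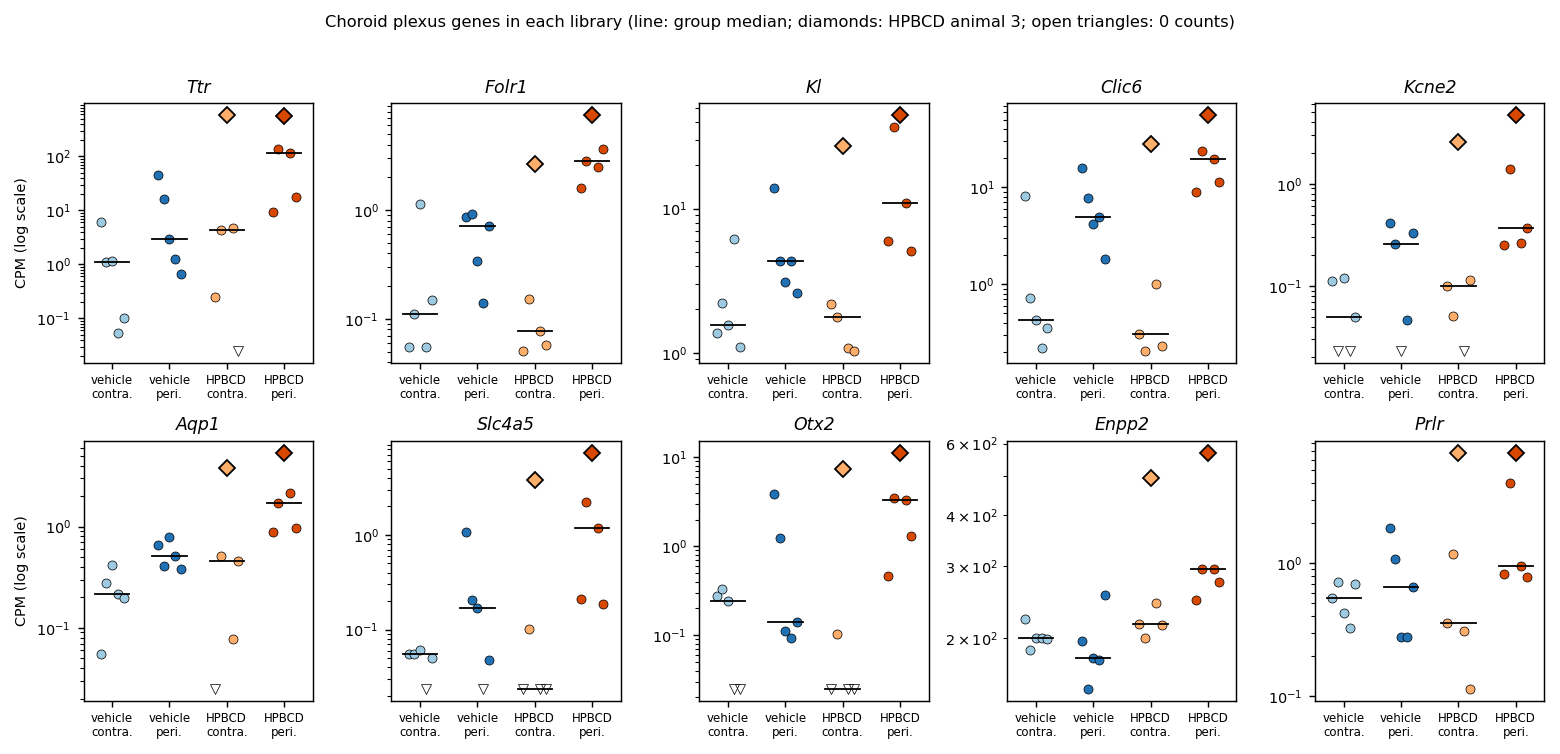
CPM of each of the 10 genes (y axis, log scale) in the 4 groups of 5 libraries, with a line at each group median. The contralateral and peri-infarct libraries of HPBCD animal 3, drawn as diamonds, are the highest of their group for all 10 genes.

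The ion and water transport genes were Clic6, Aqp1, Kcne2 and Slc4a5. Clic6 (ENSMUSG00000022949, chr16:92485736-92541243) encodes a chloride intracellular channel protein. Its peri-infarct level was 16.0, 7.85, 4.22, 4.92 and 1.80 CPM in vehicle and 9.02, 24.0, 56.0, 19.5 and 11.3 CPM in HPBCD animals. The contralateral level was 8.08, 0.724, 0.422, 0.218 and 0.349 CPM in vehicle and 0.304, 0.204, 28.5, 1.000 and 0.228 CPM in HPBCD animals. Vehicle animal 1 and HPBCD animal 3 were thus above all others on the contralateral side. Aqp1 (ENSMUSG00000004655, chr6:55336432-55348555), the water channel of the apical membrane, was at 0.665, 0.413, 0.787, 0.511 and 0.380 CPM in vehicle peri-infarct libraries. Those of HPBCD animals held 0.877, 1.70, 5.34, 2.13 and 0.978 CPM of it, and the 2 groups did not overlap. Contralateral Aqp1 ran from 0.0553 to 0.422 CPM in vehicle animals, and from 0 to 0.510 CPM in 4 HPBCD animals against 3.77 CPM in animal 3. Kcne2 (ENSMUSG00000039672, chr16:92292389-92298129) encodes a beta subunit of potassium channels, and Slc4a5 (ENSMUSG00000068323, chr6:83219828-83304945) a sodium bicarbonate cotransporter. The counts of Slc4a5 in the HPBCD peri-infarct libraries were 5, 44, 155, 22 and 4, and contralaterally 0, 2, 55, 0 and 0. Kcne2 counts in the same order were 6, 28, 99, 5 and 8, and then 2, 1, 37, 0 and 2. In vehicle animals Slc4a5 had 21 counts in the peri-infarct library of animal 1 and 4 or fewer in each other library, and Kcne2 had 8 or fewer in each. For both genes most reads of the HPBCD contralateral group came from animal 3.

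Otx2 (ENSMUSG00000021848, chr14:48657677-48673819), the homeodomain factor, was highest of its group in both libraries of HPBCD animal 3 and in the peri-infarct library of vehicle animal 1. Its counts in vehicle peri-infarct libraries were 76, 24, 2, 2 and 3, and in those of HPBCD animals 11, 69, 237, 62 and 28. Contralateral counts were 5, 6, 4, 0 and 0 in vehicle and 0, 2, 107, 0 and 0 in HPBCD animals. The strand setting of the counting is not given in the sources used here, and Otx2 shares 168 bases of exon with Gm49154 on its own strand and 154 bases with an antisense gene, Otx2os1, so reads of these genes may not be separated. Enpp2 likewise has 345 bases opposite another gene, and Prlr shares 203 bases with one on its own strand. Prlr (ENSMUSG00000005268, chr15:10177238-10349180) encodes the prolactin receptor, which choroid plexus epithelium is known to carry. Its peri-infarct level was 1.84, 1.08, 0.281, 0.279 and 0.664 CPM in vehicle and 0.835, 4.01, 6.75, 0.957 and 0.792 CPM in HPBCD animals. Contralaterally Prlr ran from 0.327 to 0.724 CPM in vehicle animals, and from 0.114 to 1.17 CPM in 4 HPBCD animals against 6.70 CPM in animal 3.

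Enpp2 (ENSMUSG00000022425, chr15:54838901-54952892) differed from the other 9 genes by its high level in every library. It encodes autotaxin, the secreted enzyme that makes lysophosphatidic acid, and it is expressed by oligodendrocytes as well as by choroid plexus epithelium. Vehicle libraries held 150 to 255 CPM in the peri-infarct region and 187 to 223 CPM contralaterally. HPBCD peri-infarct libraries were at 248, 295, 569, 295 and 274 CPM, and the contralateral ones at 216, 200, 495, 243 and 215 CPM. HPBCD animal 3 stood apart here too, at 2.03 times the next highest contralateral library and 1.93 times the next highest peri-infarct one. Per kilobase of exon, the group medians of Enpp2 were 30.9 to 51.0 RPKM over the 4 groups, and those of Ttr 0.939 to 97.6 RPKM. In the 2 contralateral groups the median RPKM of each of the other 9 genes was below that of Enpp2, while in HPBCD peri-infarct libraries Ttr was above it.

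The first comparison asked whether the genes differed between the regions of the same brain. In vehicle animals 5 of the 10 genes had enough counts to be tested, and 0 passed an adjusted p of 0.05 in edgeR's quasi-likelihood test, against 20.2% of all 15801 genes tested (10.5% called higher). Ttr was higher by 2.97 on the log2 scale (SE 1.20, adjusted p = 0.102, edgeR). Clic6 had a log2 fold change of 1.83 (SE 0.89, adjusted p = 0.171) and Kl one of 1.19 (SE 0.56, adjusted p = 0.153). With the 2 libraries of each animal paired in a replicate block, Ttr (2.90, adjusted p = 0.00482) and Clic6 (2.67, adjusted p = 0.0107) were called higher in the peri-infarct region, where 19.3% of all genes were called. Both genes were higher in the peri-infarct library of all 5 animals. Without the contralateral library of vehicle animal 1 the unpaired fit also called both, at 4.50 and 4.03, with 19.2% of all genes. Without that of animal 4 it called Kl, at 1.86, with 24.4% of all genes. With other single libraries left out, the changes fell as low as 1.65 for Ttr, 1.26 for Clic6 and 0.54 for Kl, and were not called. Enpp2 had a log2 fold change of -0.07 and Prlr of 0.60, and neither was called in either fit.

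In HPBCD animals, the unpaired test called 1 of 8 tested genes, Folr1, at a log2 fold change of 2.73 (SE 0.83, adjusted p = 0.0135, edgeR), against 54.6% of all 16047 genes (30.3% called higher). The unpaired difference of Ttr was 0.53 (SE 1.59, adjusted p = 0.796), with the contralateral library of animal 3 as high as its peri-infarct one. Paired by animal in the replicate block, all 8 tested genes were higher in the peri-infarct region, where 55.2% of all genes were called in either direction. Of these 8, Folr1, Clic6, Aqp1 and Otx2 passed the count filter mainly through the peri-infarct libraries, where they are high. The count of 8 therefore depends in part on the filter. The paired log2 fold changes were 3.91 for Ttr, 3.69 for Clic6, 3.37 for Folr1, 2.84 for Otx2, 2.30 for Kl, 1.79 for Aqp1, 1.21 for Prlr and 0.37 for Enpp2, with adjusted p between 0.00094 and 0.0225. Leaving out only the contralateral library of animal 3 gave 8 calls as well, among them Ttr at 6.26 and Otx2 at 6.86, where 51.4% of all genes were called. Leaving out both libraries of animal 3 gave 6 calls of 7 tested, and 46.3% of all genes. Kcne2 and Slc4a5 did not reach the count needed for the test, and both had more in the peri-infarct library of all 5 HPBCD animals.

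**Figure D2:**
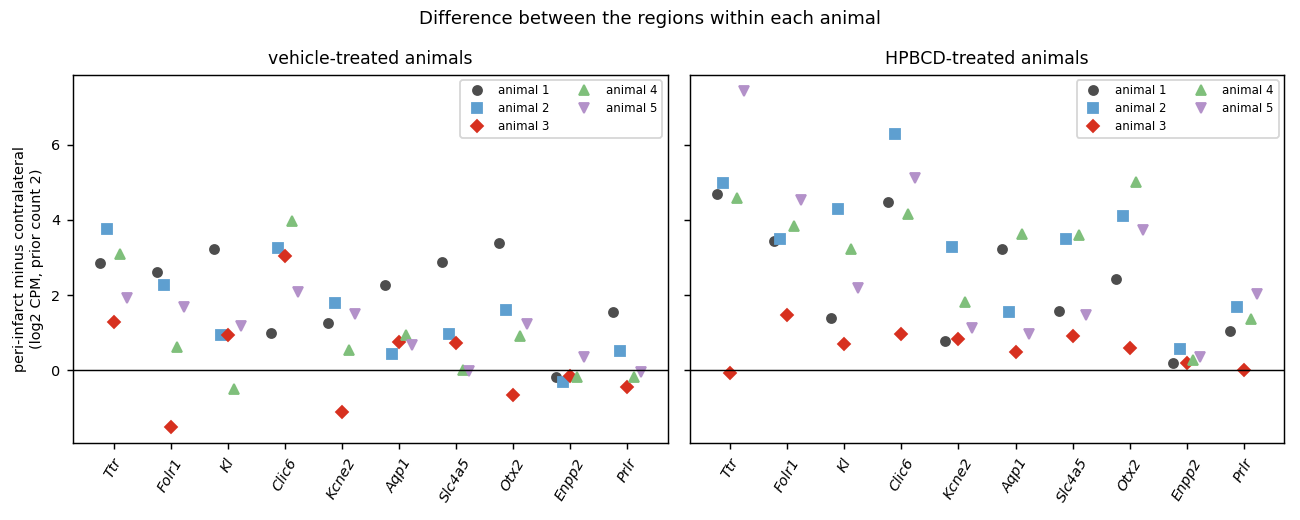
Peri-infarct minus contralateral level (y axis, log2 CPM with a prior count of 2) of each gene within each of the 5 vehicle-treated and 5 HPBCD-treated animals. For Ttr the HPBCD animals other than animal 3 lie between 4.57 and 7.42, and animal 3 lies at -0.08.

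Within HPBCD animals the difference between the regions was smaller in animal 3 than in the others for several genes. For Ttr it was 4.70, 4.98, 4.57 and 7.42 in those 4 animals on the log2 scale, and -0.08 in animal 3. For Clic6 it was 4.48, 6.28, 4.15 and 5.10, against 0.97 in animal 3. Folr1 kept a difference of 1.46 in animal 3, with 3.44 to 4.54 in the others. In vehicle animals the difference for Folr1 was below 0 in animal 3, at -1.50, and between 0.61 and 2.60 in the others.

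The next comparison set libraries labelled HPBCD against those labelled vehicle in the peri-infarct region. The treatment of a library is known here only from its label. Whether the labels vehicle and HPBCD stand on the right peri-infarct libraries could not be settled from the files. If they were exchanged, every direction given between treatments in that region would turn. The comparisons between regions, the differences within animals and the interaction would then also join libraries of different treatments. If whole animals were exchanged, the contralateral directions between treatments would turn as well. Gfap, an intermediate filament of reactive astrocytes, was read beside the question of the labels. Its level was 574 to 2813 CPM in the libraries labelled vehicle and 2466 to 4590 CPM in those labelled HPBCD. It was not called (log2 fold change 1.03, adjusted p = 0.0552, edgeR). Of 8 neuronal markers 5 were lower in the libraries labelled HPBCD, beside 9% of all genes. Which labels are right was not tested. Of the 10 genes 8 were tested and 4 were higher in the libraries labelled HPBCD, with 21.4% of all 16224 genes called and 12.4% called higher. Folr1 rose by 2.61 on the log2 scale (SE 0.51, adjusted p = 0.0133, edgeR) and Aqp1 by 2.02 (SE 0.51, adjusted p = 0.0236). Clic6 rose by 1.81 (SE 0.59, adjusted p = 0.0493) and Enpp2 by 0.84 (SE 0.23, adjusted p = 0.0292). Ttr had the largest log2 fold change of the 8, at 3.69, with a wide error (SE 1.26, adjusted p = 0.057), and Kl (1.89, adjusted p = 0.0651), Prlr (1.70, adjusted p = 0.106) and Otx2 (1.87, adjusted p = 0.18) were not called. The median change of the 8 was 1.88, beside 0.01 for all genes tested. Of the 8, Folr1, Aqp1 and Otx2 had too few counts for the test between regions in vehicle animals. They entered here through the libraries labelled HPBCD, where they are high, so the count called and the median depend in part on the filter. Without the peri-infarct library of HPBCD animal 3, 1 of 8 was called, Folr1, and 5.03% of all genes. Clic6 was then at 1.22 (adjusted p = 0.139), Aqp1 at 1.38 (adjusted p = 0.0507) and Enpp2 at 0.56 (adjusted p = 0.0517). Calls also fell to 1 of 9 tested without vehicle animal 2, where 7.93% of all genes were called, and to 2 of 9 without vehicle animal 4, where 14.2% were. The call of Clic6 was lost without any 1 of vehicle animals 2 to 5 or HPBCD animals 2 to 5. The call of Enpp2 was lost without vehicle animal 1 as well (0.85, adjusted p = 0.0617), where Ttr and Kl passed, at 5.02 and 2.55. Both of these also passed without HPBCD animal 1, at 4.00 and 2.15. With each library left out in turn, Ttr ran from 2.44 to 5.02 and Kl from 1.40 to 2.55. Prlr then ran from 1.01 to 2.23 and Otx2 from 0.98 to 3.34.

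**Figure D3:**
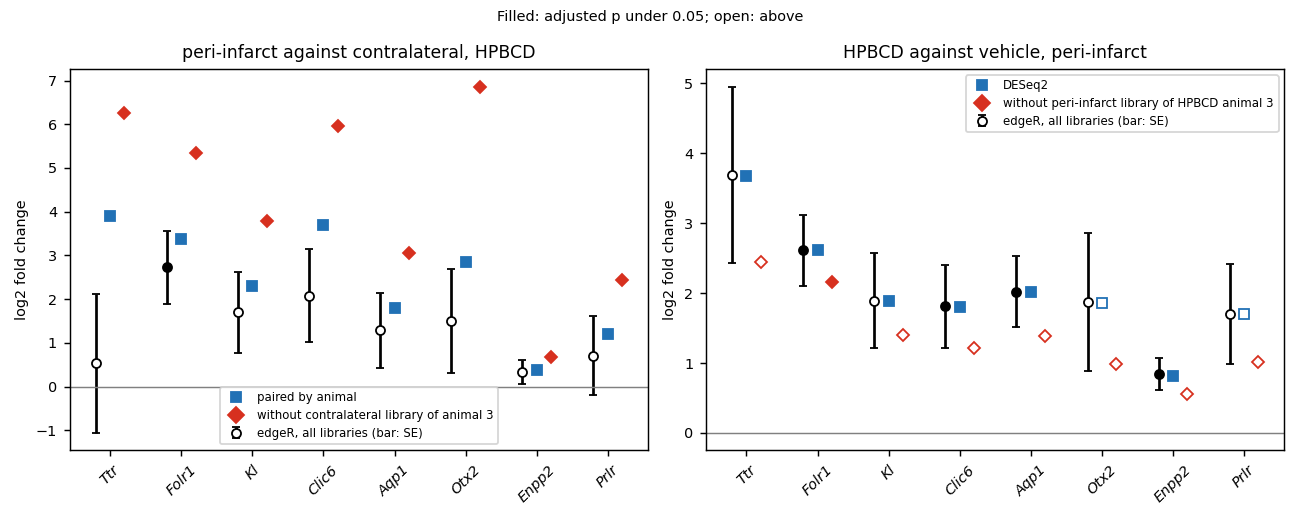
Log2 fold change (y axis) of each tested gene for peri-infarct against contralateral libraries of HPBCD animals and for libraries labelled HPBCD against vehicle in the peri-infarct region, with bars for SE in the edgeR fit on all libraries and filled symbols for adjusted p under 0.05. The paired fit, and the fit without the contralateral library of animal 3, call all 8 genes in the former comparison, and Folr1 is called in each fit of the latter.

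In the contralateral region 4 genes were tested between the treatments and 0 were called, where 0% of all 15469 genes were called by edgeR, with 1224 at an unadjusted p under 0.05 and 53 called by DESeq2. Ttr had a log2 fold change of 6.12 (SE 1.91, adjusted p = 0.503), which fell to 0.41 without the library of HPBCD animal 3. Kl was at 1.40 and Prlr at 1.60, and without that library they were at -0.70 and -0.13. Enpp2 was at 0.43 (adjusted p = 0.64), and from 0.10 to 0.52 with single libraries left out. The test of whether the difference between regions differed between the treatments called 0 of 9 genes, with 9.41% of all 16758 genes called and 5.03% called higher. Folr1 was at 1.68 in it (adjusted p = 0.413), and at 4.31 (adjusted p = 0.0327) without the contralateral library of HPBCD animal 3.

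Markers of tissue that borders the choroid plexus were summed beside the 10 genes. The 7 ependymal markers, which are mostly genes of motile cilia, summed to 94.2 to 183 CPM in HPBCD peri-infarct libraries and to 26.3 to 63.2 CPM in the vehicle ones. Contralaterally they summed to 10.1 to 15.4 CPM in HPBCD and to 8.35 to 48.5 CPM in vehicle libraries. HPBCD animal 3 had the highest ependymal sum of its group on that side, 15.4 CPM beside 10.1 to 10.9 CPM in the other 4. Foxj1, a transcription factor of motile ciliated cells, was highest there as well, at 7.89 CPM, while Tmem212 and Ccdc153 had at most 1 count in each of the 5 libraries. The sum over the 8 choroid plexus genes other than Ttr and Enpp2 was 82.8 CPM in that animal, beside at most 4.08 CPM in the other 4. Vehicle animal 3 was the reverse contralaterally, with an ependymal sum of 48.5 CPM and a choroid plexus sum of 4.40 CPM, and was the vehicle contralateral library with the highest Folr1. Between regions in HPBCD animals all 7 ependymal markers were higher, where 30.3% of all genes were, and between treatments in the peri-infarct region 5 of 7 were, beside 12.4%. The part of this in the results above was not tested.

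**Figure D4:**
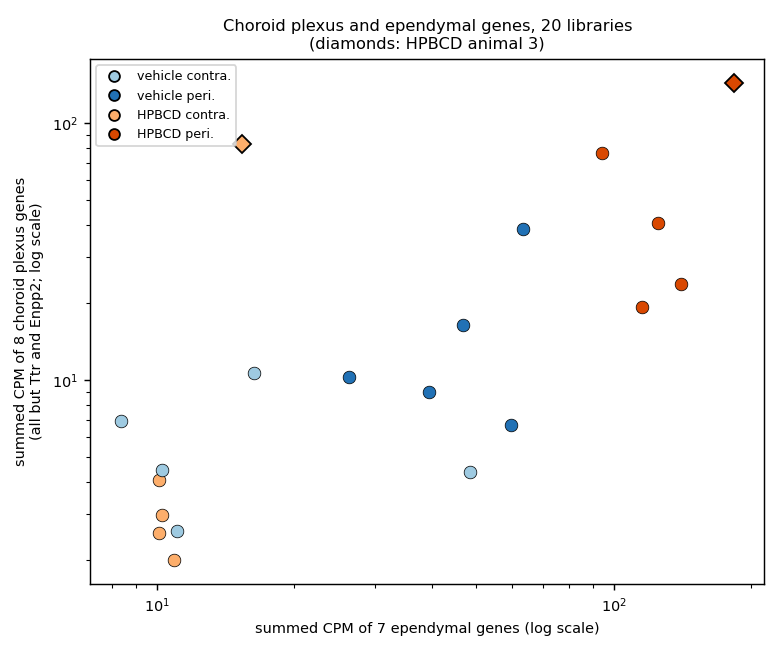
Summed CPM of 8 choroid plexus genes (y axis, log scale) against summed CPM of 7 ependymal markers (x axis, log scale) in all 20 libraries, coloured by group. The contralateral library of HPBCD animal 3 has 82.8 CPM of the former at 15.4 CPM of the latter, apart from the other 4 contralateral libraries of HPBCD animals.

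Markers of other cells moved with the regions of HPBCD animals as well. All 7 striatal markers were higher in the peri-infarct libraries, with sums of 500 to 1387 CPM against 175 to 229 CPM contralaterally. All 8 fibroblast and meningeal and all 10 oligodendrocyte markers were higher as well, where 30.3% of all genes were. Of 8 neuronal markers 7 were lower, beside 24.3% of all genes. In vehicle animals, where 20.2% of all genes were called between regions, 0 of 7 striatal markers were called. Their sums were 284 to 1535 CPM in the peri-infarct libraries and 153 to 240 CPM in 4 of the contralateral ones, so the regions overlapped only through the contralateral library of animal 1, at 2602 CPM. Of 6 astrocyte markers 4 were higher between regions in HPBCD animals, beside 30.3% of all genes, with Gfap higher by 4.53 (adjusted p = 3.56e-08, edgeR). With treatment in the peri-infarct region 1 of 6 astrocyte markers was called higher, Gja1 (0.49, adjusted p = 0.0336, edgeR), beside 12.4% of all genes. All 8 fibroblast and meningeal markers were higher in libraries labelled HPBCD, where their sum ran from 366 to 1057 CPM against 58.1 to 317 CPM in those labelled vehicle, and Col1a1 rose by 2.32 (adjusted p = 0.0166, edgeR). All 3 red blood cell genes tested were higher too, beside 12.4% of all genes. Of 8 neuronal markers 5 were lower, beside 9% of all genes. Summed oligodendrocyte markers were 13066 to 19518 CPM in the peri-infarct libraries of HPBCD animals and 6426 to 15367 CPM in those of vehicle animals. In the contralateral libraries of HPBCD animals they ran from 5928 to 7442 CPM. Between treatments in the peri-infarct region 2 of the 10 were called higher, Mobp and Cldn11, where 12.4% of all genes were. Across the 20 libraries, as deviations from the group means, Enpp2 had r = 0.24 with the oligodendrocyte sum and, over the 18 libraries without HPBCD animal 3, r = 0.60. Folr1 had r = 0.73 with the ependymal sum over 20 libraries and 0.85 over 18, and Ttr had 0.36 and 0.25. These are descriptions over libraries that share animals. What share of the member changes goes with these cells was not tested.

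A second list of 22 genes known in choroid plexus epithelium was read beside the 10. Between regions 3 of 14 tested were higher in vehicle animals and 15 of 19 in HPBCD animals, and 10 of 18 were higher in the peri-infarct libraries labelled HPBCD. Of all genes tested in these comparisons 10.5%, 30.3% and 12.4% were called higher. In the contralateral region 0 of 12 were called between treatments. Kcnj13, an inward rectifier potassium channel of the apical membrane, rose by 1.91 with treatment in the peri-infarct region (SE 0.57, adjusted p = 0.0381, edgeR). It had too few counts for the test between regions in vehicle animals. It was tested here through the libraries labelled HPBCD, at a mean of 1.49 CPM beside 0.393 CPM. F5, which encodes coagulation factor V, rose by 2.33 with treatment there (SE 0.62, adjusted p = 0.027, edgeR). In the contralateral library of HPBCD animal 3 all 22 were the highest of their group, by margins from that of Htr2c, at 16.6 CPM beside 16.4 CPM in the next, to much wider ones. F5 was at 12.4 CPM in that library and at 0.152 to 0.692 CPM in the other 4. Sostdc1, a secreted BMP and WNT inhibitor, was at 4.88 CPM there and at 0.153 to 0.304 CPM in the others. The sum of the 22 weighs abundant genes most, and its correlations describe mainly those. Igf2 and Slc12a2 had means of 249 and 169 CPM in HPBCD peri-infarct libraries. Kcnj13, Sostdc1 and F5 had means of 1.49, 2.52 and 5.25 CPM there. As deviations from the group means, the sum of the 22 had r = 0.45 with Ttr, 0.51 with Otx2 and 0.29 with Folr1 over 20 libraries. Over the 18 libraries without HPBCD animal 3 these were 0.02, 0.07 and -0.35, and for the 10 genes r ran from -0.41 for Kcne2 to 0.24 for Kl. Several of the 22 are not known as particular to the epithelium, and which cells their reads came from was not tested. Col8a1 was at 205 CPM in vehicle and 198 CPM in HPBCD tissue, in the peri-infarct libraries of animals 3 and 5, and at 26.5 CPM or less in the other 8.

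Genes that act with the 10 were counted by role, beside the same shares of all genes called higher, 12.4% with treatment in the peri-infarct region and 10.5% and 30.3% between regions in vehicle and HPBCD animals. The lists are short, and a count close to these shares is not a result about the list. Of 7 genes of thyroid hormone and retinol carriage, the setting in which Ttr works, 1 was higher in peri-infarct libraries labelled HPBCD: Stra6, the receptor for retinol-binding protein (2.15, adjusted p = 0.0213, edgeR). Between regions 1 of 7 was higher in vehicle animals, Dio3, and 2 were higher and 2 lower in HPBCD animals. Among 6 folate genes, 0 were called with treatment, and 2 were higher between regions in HPBCD animals, Folr2 and Slc19a1. Of 4 genes for beta-klotho and the FGF receptors that pair with klotho proteins 3 were tested. Fgfr1 (0.92, adjusted p = 0.0128) and Fgfr2 (0.58, adjusted p = 0.0324) were higher with treatment in the peri-infarct region, and Fgfr3 was not called (-0.19, adjusted p = 0.187). Between regions in HPBCD animals Fgfr1 and Fgfr2 were higher and Fgfr3 was lower (-0.28, adjusted p = 0.0159). The lysophosphatidic acid receptors and phosphatases, which act on the product of autotaxin, had 7 of 9 higher with treatment there, with a median of 0.91 for the list, among them Lpar1 (0.91, adjusted p = 0.0128). Between regions 3 of 8 were higher in vehicle and 8 of 9 in HPBCD animals. Of 7 tested ion and water transport genes, 2 were higher with treatment, Stk39 and Wnk1. Among 5 genes of prolactin receptor signalling, Jak2 (0.31, adjusted p = 0.0176) and Stat5a (0.88, adjusted p = 0.0266) were higher with treatment.

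The genes most like Ttr across libraries were named by the correlation of log2 CPM deviations from the 4 group means, over 20 libraries, and a mean of at least 1 CPM was asked only of genes outside the 10. Of the other 9 genes, Otx2 had r = 0.91 with Ttr, Clic6 0.89, Slc4a5 0.86 and Prlr 0.83, and Aqp1 and Enpp2 the lowest, at 0.61. Without the 2 libraries of HPBCD animal 3, r was 0.81 for Otx2, 0.77 for Clic6 and 0.71 for Slc4a5, but 0.08 for Aqp1 and -0.01 for Enpp2. Outside the 10 genes the highest r with Ttr belonged to Calml4 (0.87), Heph (0.84), Drc7 (0.79), Epha2 (0.78), Ahcyl2 (0.77), Sostdc1 (0.76), Steap2 (0.74), Folh1 (0.74), Wnt16 (0.73) and Cab39l (0.73). Over 18 libraries Epha2 was at 0.80, Heph at 0.76 and Calml4 at 0.75, and Sostdc1 fell to 0.41. Calml4 and Sostdc1 were already on the list of 22.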

How the data were processed

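RNA was sequenced from 20 libraries, 5 in each of 4 groups of region and treatment (TruSeq Stranded mRNA). Per the paper's methods and the submitters' processing notes, reads were demultiplexed with bcl2fastq 2.19, trimmed with Trimmomatic 0.32, aligned to GRCm38 with STAR 2.5.2b and counted with htseq-count. The authors deposited raw read pair counts per Ensembl gene. The annotation and the strand setting are not given in the sources used here. Between 25.1% and 40.1% of read pairs were not assigned to a gene, mostly for aligning at more than 1 place, and these, listed on 5 lines, entered neither the library totals nor the fits. GENCODE M21 named 98.16% of genes, which held 99.933% of gene counts, and gave exon lengths and positions.

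The 10 genes and the lists beside them were chosen with earlier results of these data known. Some genes of these lists are not reported here. The genes named are the 10, the counts of each list with examples, and the 10 others most correlated with Ttr. Comparisons were fitted on all genes with edgeR 4.0.16 (TMM, filterByExpr, quasi-likelihood F test, two-sided, Benjamini-Hochberg adjustment at 0.05) in R 4.3.3, with SE as the fold change over the root of F, on the 2 groups compared, or all 4 for the interaction. The scripts were tested on simulated counts. Alternatives were RLE factors, no filter, DESeq2 1.42.0, limma 3.58.1 voom with quality weights, a robust fit, all 4 groups in 1 fit, a replicate block and each library left out. Fits without HPBCD animal 3, and paired fits without each animal, were added after the values were seen.

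The pairing comes from the animal identifier that the deposited names of both regions share. Over 14795 genes, deviations of paired libraries correlated with a mean r of 0.11, from -0.14 to 0.37. Of 10 pairs 5 had r above 0.1, and 4 of 10 peri-infarct libraries correlated best with the contralateral library of their own animal. Each animal gave 1 library per region, so p-values between treatments within a region measure the spread between animals. Those of the paired fits between regions measure the spread of the differences within animals. The unpaired fits between regions and the main interaction fit treat the 2 libraries of an animal as independent. Gene counts set a counting limit of 0.125 to 0.231 CPM for 3 counts.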

Additional observations from a re-analysis of the deposited data

Results flagged for a closer look

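A library was marked where its gap to the nearest other in its group of 5, over the group's range, was above Dixon's critical value. For values with a normal spread, chance gives this in about 1 in 20 groups. CPM of scarce genes are skewed and the groups share libraries, so the number of marks cannot be set against that rate. Over the 10 genes, the second choroid plexus list and the ependymal markers, 26 of 48 groups were marked, and 12 of those marks were on the contralateral library of HPBCD animal 3.

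All 10 genes were marked in that library, at 582 CPM for Ttr, 2.65 for Folr1, 27.4 for Kl, 28.5 for Clic6, 2.58 for Kcne2, 3.77 for Aqp1, 3.84 for Slc4a5, 7.47 for Otx2, 495 for Enpp2 and 6.70 for Prlr. The summed second list, at 486 CPM, and the summed ependymal markers, at 15.4 CPM, were marked there as well. The peri-infarct library of the same animal was marked for Ttr at 552 CPM, Kcne2 at 4.68, Aqp1 at 5.34, Slc4a5 at 7.32, Otx2 at 11.2 and Enpp2 at 569.

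Among vehicle animals, animal 1 was marked for Ttr (6.08 CPM) and Clic6 (8.08 CPM) contralaterally and for Kl (13.9 CPM) and Slc4a5 (1.07 CPM) in the peri-infarct region. Its contralateral library also had the highest sum of striatal markers of its group, at 2602 CPM beside 153 CPM in the lowest. Vehicle animal 3 was marked contralaterally for Folr1, at 1.15 CPM, and for the ependymal sum, at 48.5 CPM. Vehicle animal 4 was marked contralaterally for Kl, at 6.11 CPM, and for Slc4a5 as the lowest, at 0 CPM, where the other 4 libraries held 1 count each.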

How the results depend on the processing

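Counts of members called are given with the number tested and, in parentheses, the share of all genes called under the same setting. Between regions in vehicle animals 0 of 5 were called (20.2%), 2 of 5 with limma voom (32.1%), 2 of 5 in the paired fit with the replicate block (19.3%), and 0 to 2 with each library left out (12.5% to 24.4%). Paired without animal 1, 2, 3 or 4 it was 2 (8.48% to 16.6%), and without animal 5 it was 1 of 5 (3.1%). In HPBCD animals it was 1 of 8 (54.6%), 2 of 8 with limma voom (58.8%), 8 of 8 in the replicate block (55.2%), 1 to 8 with each library left out (49.7% to 57.5%), and 6 of 7 without both libraries of animal 3 (46.3%). Paired without animal 1, 4 or 5 it was 8 of 8 or 9 (47.3% to 53.2%), without animal 2 it was 7 of 8 (53.2%) and without animal 3 it was 7 of 7 (46.2%). With treatment in the peri-infarct region it was 4 of 8 (21.4%), 7 of 10 with DESeq2 (16.5%), 3 of 8 with limma voom (37.1%), 3 of 8 in the robust fit (21.3%), 3 of 9 with all 4 groups in 1 fit (29.7%), and 1 to 6 with each library left out (5.03% to 32.5%). The numbers are only names between treatments, and the replicate block left 4 of 8 there (27%) and 0 of 4 contralaterally (0.00646%). The interaction count was 0 of 9 (9.41%), and 0 to 1 with each library left out (3.12% to 18.4%).

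Of 735 single fold changes under alternatives, 599 kept direction and call, 17 lost it, 74 gained it and 45 changed sign, 40 of them in the interaction. Interaction estimates changed sign for Ttr (0.86 in the replicate block, 2.04 without animal 3), Otx2 (0.86, 3.29, and 1.23 with voom), Slc4a5 (0.31, and 1.11 with voom) and Aqp1 (-0.01 with DESeq2). With each library left out they ran from -3.96 to 3.29 for Ttr, -0.15 to 2.58 for Kl, -1.95 to 4.10 for Clic6, -0.59 to 1.81 for Aqp1, -2.24 to 3.44 for Slc4a5, -2.10 to 4.18 for Otx2 and -0.61 to 1.83 for Prlr. Signs also changed between regions for Enpp2 in vehicle (-0.19 to 0.01) and for Ttr (-0.71 to 6.26) and Prlr (-0.01 to 2.44) in HPBCD animals, and between treatments contralaterally for Kl (-0.70 to 2.06) and Prlr (-0.13 to 1.92). Apart from the left-out libraries, the cause was not tested. Genes under 3 counts in most libraries, Kcne2 and Slc4a5 among them, are limited by depth.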
